A study of Rattus norvegicus with 18 samples.

Results

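The comparison set the oculomotor nucleus of 18-month rats against that of 6-month rats. Its members were the arrays that the labels assign to this nucleus at these ages, 3 at 18 months and 3 at 6 months, 6 of the 18 arrays in the series. The animals were labelled F344BN at every age, no treatment or allele was named, and tissue from 4 animals was combined into each RNA sample. The other arrays measured the same nucleus at 30 months and the spinal cord at all ages, with 3 arrays in each group. The study asked how ageing alters expression in these tissues, with 6 months as its baseline. Nothing in the labels says that the pools were prepared on separate days, so the spread between the 3 pools of a group may be partly technical. The p-values measure that spread, estimated within the groups of all 18 arrays. In tissue of mixed cells, fewer cells of a type and less RNA per cell cannot be told apart.

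Cholinergic motor neurons of the oculomotor nucleus, in the midbrain, drive most of the muscles moving the eye and raising the lid. The nucleus lies beneath the cerebral aqueduct, close to the dopamine neurons of the ventral midbrain. Microglia, the resident macrophages of the brain, are known to express more complement and antigen presentation genes with age. Fibroblasts of the meninges and vessels, by contrast, are known to lay down fibrillar collagen mostly in young animals.

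The dissection was checked against marker genes. Th, the rate-limiting enzyme of dopamine synthesis, had signals of 2346, 2450.4 and 2893 at 6 months and 2237, 2526 and 2701 at 18 months, against 77.1 to 138 on the 9 cord arrays. Slc6a3, the dopamine transporter, ran from 1334 to 1521 on the 6 oculomotor arrays and from 112 to 174 in the cord. Hoxc8, a gene of the trunk body axis, ran from 2.0 to 14.3 here and from 40.6 to 172 in the cord. These 3 genes set the samples apart from the cord, and Th and Slc6a3 showed transcripts of dopamine neurons in them. Most motor neuron markers were less abundant than in the cord. Chat, which makes acetylcholine, ran from 96.8 to 191 here and from 316 to 438 in the cord. Phox2a, a transcription factor that oculomotor neurons require, ran from 84.2 to 171, which overlapped the range of the cord arrays (90.4 to 172), and it did not pass the filter on low signals. Isl1, a motor neuron transcription factor, lay below the floor of 66.4 on 5 of the 6 arrays, and ran from 51.0 to 151 in the cord. Chat and Isl1 were thus low, and Phox2a did not set this nucleus apart from the cord. The motor neuron markers Slc5a7 (396 to 610.2), Prph (412 to 503) and Nefh (5272 to 6055) were brighter. They still lay below their cord ranges of 825 to 1481, 1045 to 1279 and 7784 to 10277. Slc18a3 (111 to 255) also lay below its cord range (554 to 905).

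The 6 arrays had median signals between 253.4 and 260.2. The deposited signals carry no unit beyond a common scale, and the number of arrays limits the precision. The 3' to 5' signal ratio of the hexokinase control, a sign of RNA quality, was 1.604, 1.567 and 1.643 at 6 months and 1.752, 1.776 and 1.892 at 18 months, so it did not overlap between the ages. The ratios of GAPDH and beta-actin overlapped. The part of the hexokinase ratio in the results that follow was not tested, beyond a fit that included it. In the variation within groups, 4 arrays stood apart from the others, and none of them belonged to this comparison: replicate 3 of the oculomotor nucleus at 30 months, replicate 1 of the cord at 6 months, and replicate 3 of the cord at 18 and at 30 months. Their scores on the first principal component ran from -16.6 to -12.1. Replicate 2 at 30 months in the oculomotor nucleus lay at the other end (14.2) and had the highest median signal (275.3), whereas the 6 arrays compared lay between -1.7 and 2.

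No probe set passed the test at 18 months. Of 9482 probe sets tested with limma, 0 had a Benjamini-Hochberg adjusted p under 0.05 (0%), and the smallest adjusted p was 0.452. Before adjustment 321 probe sets (3.39%) fell under 0.05, of which 181 were higher and 140 lower at 18 months. Without replicate 2 at 6 months that count was 200. The median absolute log2 difference was 0.09, beside a median standard error of 0.14. For 9112 probe sets, 96.1% of those tested, the 95% interval of the difference lay within 1.70-fold in either direction, and for 9393 (99.1%) within 2-fold. Among 6958 genes, each given by its brightest probe set, 47.6% were higher at 18 months and the median log2 difference was -0.01. The result depended on which arrays estimated the spread. With array weights, C3 and Golm1 passed (smallest adjusted p = 0.0112 in limma), and without the 4 arrays that stood apart, C3 and Mpeg1 passed (smallest adjusted p = 0.0215 in limma). The same pair passed when replicate 2 at 30 months was left out as well (0.0268).

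**Figure D1:**
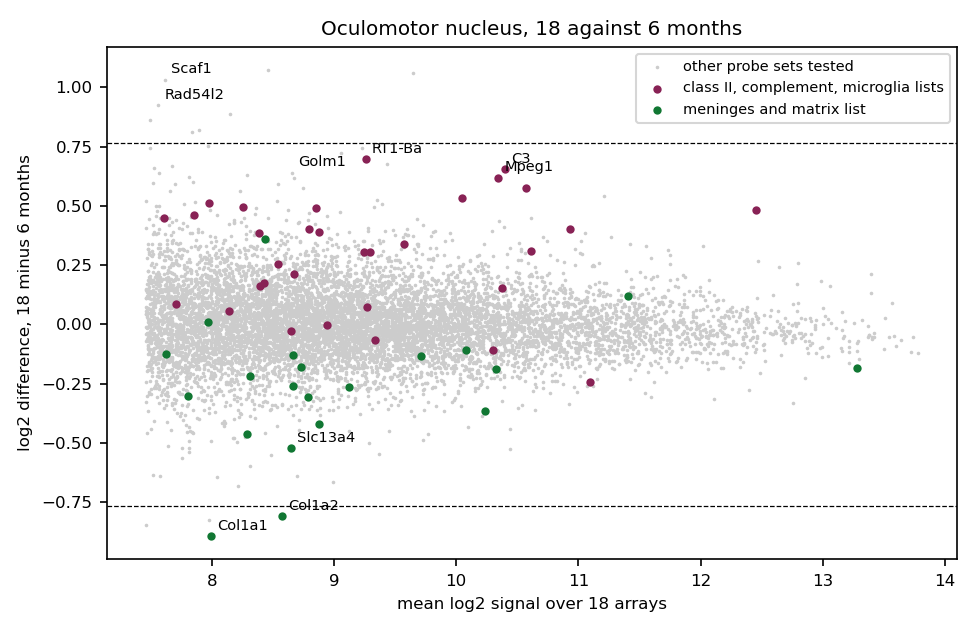
Log2 difference between 18 and 6 months (vertical axis) against mean log2 signal over 18 arrays (horizontal axis) for the 9482 probe sets tested, with dashed lines at a 1.70-fold difference. Most points lie within the lines, the class II, complement and microglia genes (purple) lie mostly above 0, and the meninges and matrix genes (green) mostly below.

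The design text of the study kept a gene when all pairs of arrays differed in the same direction and the average change was over 1.70. Applied to the deposited signals of the 9 array pairs, with the average change taken as the ratio of the mean signals, this rule kept 5 of 9482 probe sets (0.0527%), 3 higher and 2 lower. Scaf1, which links splicing factors to RNA polymerase II, had signals of 143, 119 and 192 at 6 months and 326, 369 and 234 at 18 months (ratio of means 2.04). Rad54l2, a helicase of the SNF2 family that binds nuclear receptors, had 141, 92.5 and 113 against 171, 240.5 and 246 (ratio of means 1.90). An unnamed probe set had 129, 218 and 158 against 271, 319 and 283 (ratio of means 1.73). The pair that was lower, Col1a2 and Col1a1, encodes the 2 chains of type I collagen and is given with the other matrix genes. With the difference of mean log2 signals in place of the ratio, the rule kept 7 probe sets, the same 5 with Fip1l1 (log2 difference 0.89) and Tsc22d4 (-0.85). When any 1 of the 6 arrays was left out, which leaves fewer pairs to match, the rule kept 8 to 14 probe sets, and with no filter on low signals it kept 21. None of the 5 passed limma's test, where Scaf1 and Rad54l2 had an adjusted p of 0.851.

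The genes with the smallest p that were higher at 18 months were led by Golm1 and C3. Golm1, a Golgi membrane protein, had signals of 223, 193 and 212 at 6 months and 323, 326 and 329 at 18 months, 1.56-fold with a 95% interval of 1.29 to 1.88 (limma adjusted p = 0.452). A second probe set of Golm1 differed by 0.31 on the log2 scale. C3, the protein on which all complement pathways converge, had 486, 555 and 596 against 857, 826 and 883, 1.57-fold with an interval of 1.30 to 1.91 (limma adjusted p = 0.452). In both genes every 18-month array lay above every 6-month array, and the 18-month arrays were within a narrow band of each other.

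R3hdm2, an RNA-binding protein, had 233, 206 and 257 against 414, 424 and 337 (1.69-fold). Vat1, a vesicle membrane protein, had 627, 609 and 692 against 837, 873 and 792 (1.30-fold). Cdc42se1, a small effector that binds the GTPase Cdc42, had 412, 466 and 366 against 558, 633 and 569 (1.42-fold). The groups did not overlap in any of these 3 genes, although a second probe set of Cdc42se1 differed by only 0.07 on the log2 scale. Fnbp1, which bends membranes during endocytosis, had 424, 377 and 321 against 552, 539.6 and 462 (1.39-fold), and its 6 probe sets gave log2 differences between 0.08 and 0.47. Sox10, Mpeg1, Parp9 and Tmem119, the remaining genes of the 12 with the smallest p, are given with their gene lists. No gene of the 12 passed the test.

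**Figure D2:**
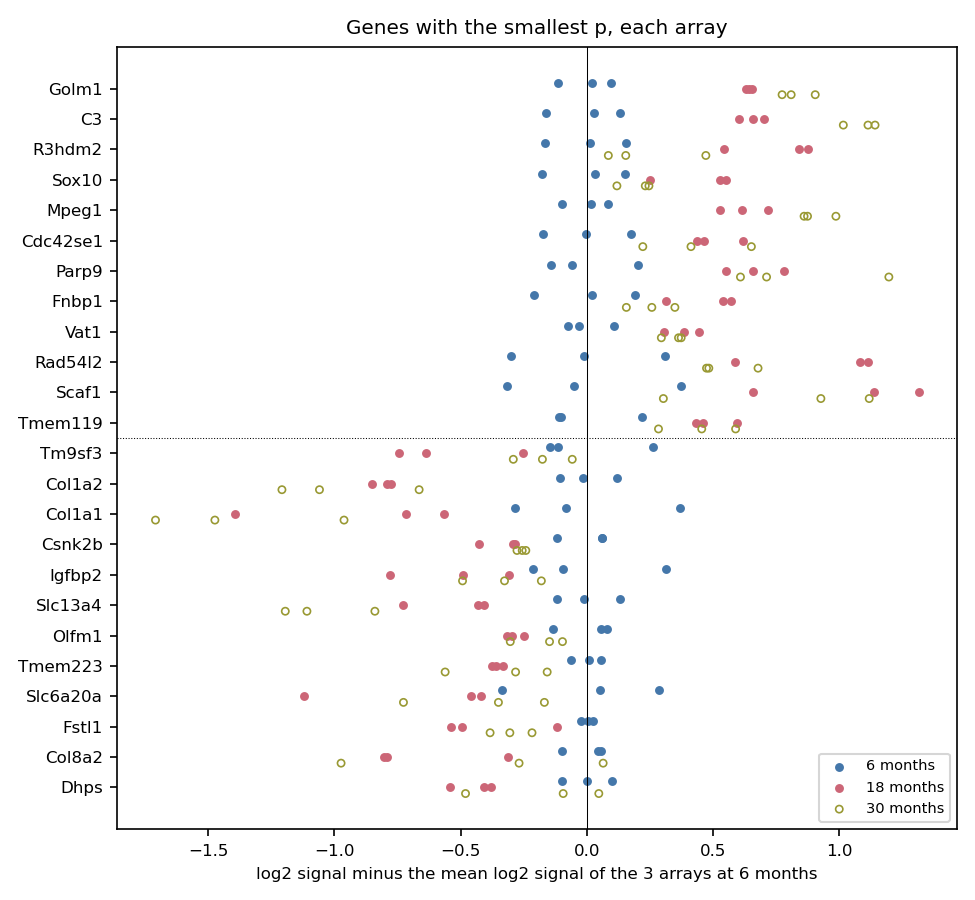
Log2 signal of each array minus the mean log2 signal of the 3 arrays at 6 months, for the 12 genes higher (above the dotted line) and the 12 lower at 18 months with the smallest p. Filled points are 6 months (blue) and 18 months (red), and open points are 30 months. Golm1, C3 and Mpeg1 lie further from 0 at 30 than at 18 months, whereas R3hdm2 and Sox10 lie nearer to 0 at 30 months.

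Genes of class II antigen presentation had the highest median of the lists with at least 5 members tested. Class II molecules are pairs of an alpha and a beta chain that carry peptides to the surface of antigen-presenting cells, with the invariant chain Cd74 as their escort and cathepsin S (Ctss) as the protease that removes it. Of 8 members tested, 7 were higher at 18 months with a median log2 difference of 0.44, and in 5 the arrays did not overlap. Among all 6958 genes, 487 (7%) did not overlap and were higher, and 531 (7.63%) did not overlap and were lower. Counts without overlap in the other lists are to be read beside these shares. The summed signal of the list was 5858, 5712 and 6879 at 6 months and 7845, 9223 and 7878 at 18 months.

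The genes of the classical chains lie together on chromosome 20 of the RefSeq assembly GRCr8. Class II promoters are known to share a Y box, the site of the factor NF-Y, and the promoters shown are those of the list members that hold its letters. The letters CTGATTGG were searched on both strands in the 250 bases before each RefSeq start, and no other motif was searched. They were found for RT1-Da, RT1-Db1, RT1-Ba and RT1-Bb, 4 of the 7 list members with a promoter entry, and in 1068 of 33469 promoters in all (3.19%). Capitals mark the motif in the 110 bases before each start, read 5′ to 3′ on the strand of the gene:
RT1-Da (alpha chain, chr20:4515305-4515414, + strand): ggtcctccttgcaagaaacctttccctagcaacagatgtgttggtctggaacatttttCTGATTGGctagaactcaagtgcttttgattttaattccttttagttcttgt
RT1-Db1 (beta chain, chr20:4560163-4560272, - strand): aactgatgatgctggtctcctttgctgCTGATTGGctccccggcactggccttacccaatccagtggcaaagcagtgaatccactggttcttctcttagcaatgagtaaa
RT1-Ba (alpha chain, chr20:4576947-4577056, + strand): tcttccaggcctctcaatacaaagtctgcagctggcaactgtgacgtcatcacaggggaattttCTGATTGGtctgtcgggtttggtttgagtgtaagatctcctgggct
RT1-Bb (beta chain, chr20:4604119-4604228, - strand): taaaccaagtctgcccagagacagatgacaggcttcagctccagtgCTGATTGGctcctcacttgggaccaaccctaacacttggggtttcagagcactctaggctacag
The motif began 52, 83, 46 and 64 bases before the start of RT1-Da, RT1-Db1, RT1-Ba and RT1-Bb. The match describes letters only, and no binding was measured.

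The alpha chain RT1-Da had signals of 291, 315 and 283 at 6 months and 458, 411 and 418 at 18 months, a log2 difference of 0.53 ± 0.19 (SE). RT1-Ba had 227, 222 and 393 against 385, 494 and 444 (0.70 ± 0.26), where replicate 3 at 6 months overlapped the older group. Cd74 had 541, 475 and 344 against 731, 596 and 669 (0.57 ± 0.22). All 3 had unadjusted limma p-values between 0.013 and 0.0178 and adjusted p-values of 1. The beta chains were dimmer. RT1-Db1 had 95.4, 118 and 118 against 129, 149 and 154 (0.39 ± 0.25), and RT1-Bb had 178, 183 and 159.6 against 229, 222 and 235 (0.40 ± 0.28). Neither beta chain overlapped between the ages. Ctss had 3609, 3511 and 4593 against 4951, 6418 and 4995 (0.48 ± 0.17). RT1-DMa and RT1-DMb, the chains of the molecule that exchanges peptides, differed by -0.00 ± 0.14 and 0.07 ± 0.12 and overlapped. RT1 genes are similar in sequence, and cross-hybridisation between their probe sets was not tested. With the hexokinase ratio as a covariate the list median was 0.23. The class I and immunoproteasome list, which serves presentation on all nucleated cells, had a median of 0.11 over 8 members, of which B2m alone did not overlap, with 5528, 4860.0 and 5120.3 against 6299, 6039.8 and 5963.

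Complement tags synapses, debris and microbes for removal by phagocytes. Of 8 complement genes tested, 7 were higher at 18 months with a median log2 difference of 0.31. In 4 of them the arrays did not overlap, beside 7% of all genes higher without overlap. C1qa, C1qb and C1qc encode the 3 chains of C1q, the recognition part of the classical pathway, and each differed by 0.31. C1qa had signals of 912, 869 and 956 against 1018, 1180.5 and 1199, and C1qc had 391, 448 and 414 against 474, 514 and 561. C1qb, with 342, 399 and 398 against 375, 552 and 495, overlapped. C1s, the protease of the same complex, had 98.6, 86.3 and 113 against 123, 128 and 159 (0.46 ± 0.22 SE). The inhibitor Serping1 (0.21) and the receptor chain Itgam (0.09) overlapped. Cd59b, which blocks the membrane attack complex, was the member in the other direction, with 2176, 2049 and 1963 against 1849, 1585 and 1796 (-0.24 ± 0.10). No complement gene passed limma's test, and with the hexokinase ratio as a covariate the list median was 0.19. The summed signal ran from 4688 to 4782 at 6 months and from 5075 to 5423 at 18 months.

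Of 17 genes of microglia and macrophages, 14 were higher at 18 months with a median log2 difference of 0.26. In 8 of them the arrays did not overlap, beside 7% of all genes higher without overlap. The summed signal of the 17 genes was 6581, 6915 and 6668 at 6 months and 8174, 8092 and 8061 at 18 months. Mpeg1, the pore-forming perforin-2 of macrophages, had 739, 704 and 651 against 1005, 1147 and 1066 (1.54-fold, limma adjusted p = 0.811). Tmem119, a surface protein of resident microglia, had 188, 187 and 235 against 273, 278 and 305 (1.41-fold, limma adjusted p = 0.89). Both genes were separated between the ages, and a dimmer probe set of Mpeg1 differed by 0.29. P2ry12, the purine receptor of surveying microglia, had 518, 518 and 496 against 609, 679 and 649, and its second probe set gave a log2 difference of 0.33 beside 0.34. The pan-leukocyte gene Cd53 had 222, 279.8 and 307 against 379.9, 395 and 354 (0.49 ± 0.15 SE).

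Fc receptors bind antibody and signal through the shared chain Fcer1g. Fcer1g had 1106, 1317 and 1276 against 1668, 1555 and 1656 (0.40 ± 0.11), with no overlap. Fcgr3a (0.26) did not overlap either, and Fcgr2b (0.51) did. Plek, a protein kinase C substrate of blood and myeloid cells, had 80.3, 105 and 94.6 against 115, 116 and 152 (0.45). Gpnmb, a glycoprotein of lipid-laden macrophages, had 221, 191 and 225 against 307, 274 and 254 (0.39). Other defining markers differed little and overlapped: Csf1r, the receptor for the growth factor on which microglia depend (0.16), the chemokine receptor Cx3cr1 (0.17), the adaptor Tyrobp (0.16) and Aif1, the calcium-binding protein Iba1 (0.06). Lgals3 (-0.03), Laptm5 (-0.06) and Lyz2 (-0.11) were the 3 with a lower mean at 18 months. The members were thus not shifted evenly, and no member passed limma's test.

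Interferons induce antiviral genes in most cell types. Of 11 interferon-responsive genes, 10 were higher at 18 months with a median log2 difference of 0.23. In 6 of them the arrays did not overlap, beside 7% of all genes higher without overlap. Parp9, an ADP-ribosyltransferase partner, had 132, 110.3 and 104 against 197, 168 and 181 (1.58-fold, limma adjusted p = 0.811). Irf7, a transcription factor that amplifies the response, had 182, 132 and 172 against 215, 202 and 207 (0.38). Ifi27 had 2215, 2386 and 2089 against 2554, 2793 and 2773 (0.28). The arrays of these 3 genes did not overlap, nor did those of Stat2 (0.23), Ifitm3 (0.28) and Bst2 (0.21). Parp14 (-0.12) was the member with a lower mean.

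**Figure D3:**
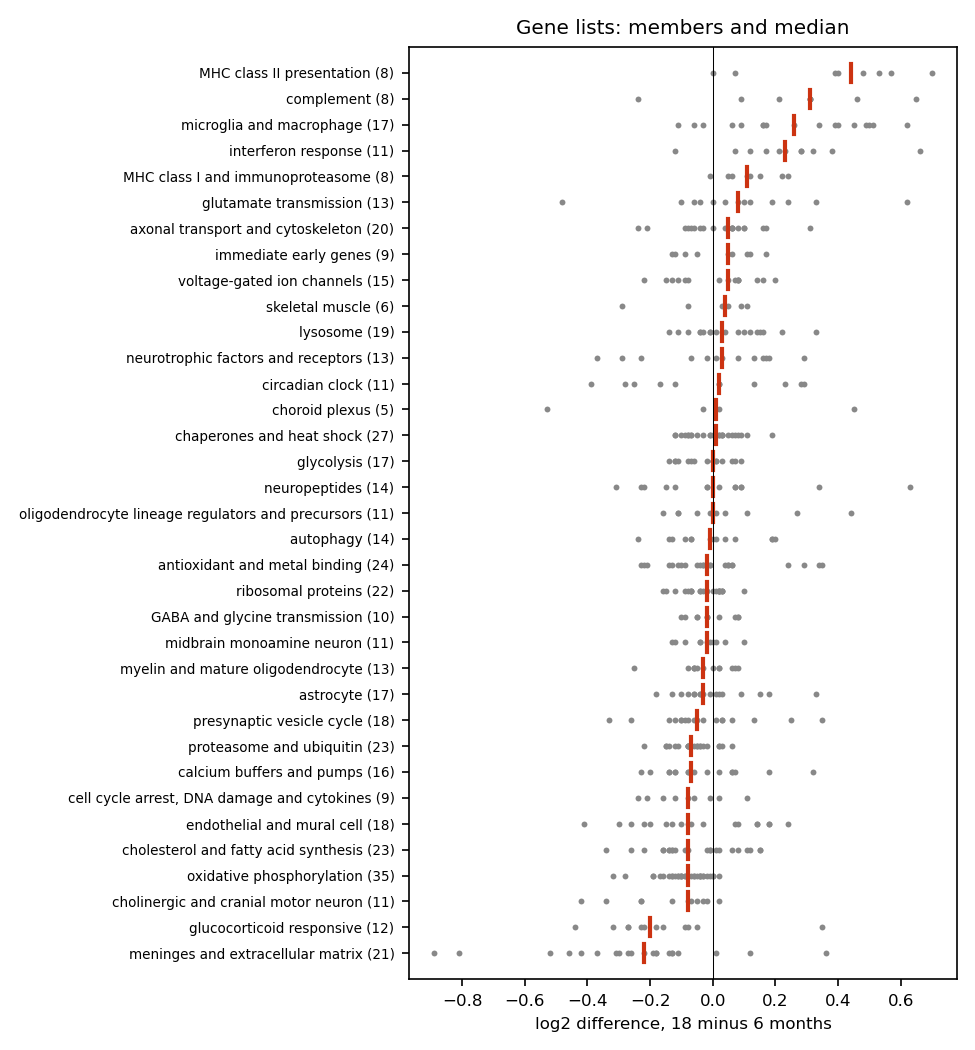
Log2 difference between 18 and 6 months (horizontal axis) for each member (grey points) of the gene lists with at least 5 genes tested, with the list median as a red bar and the number of genes in brackets. Class II, complement, microglia and interferon genes are at the top with medians of 0.23 to 0.44, and meninges and matrix genes are at the bottom with -0.22.

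Genes of the meninges and extracellular matrix had the lowest median of the same lists. Of 21 members, 18 were lower at 18 months with a median log2 difference of -0.22. The count lower without overlap was 9, beside 7.63% of all genes. The summed signal was 19386, 20007 and 19653 at 6 months and 18155, 17480.4 and 17284 at 18 months. Col1a2 had signals of 277, 295 and 324 at 6 months and 174, 165 and 172 at 18 months, 1.75-fold higher at 6 months (limma adjusted p = 0.811). Its second probe set differed by -0.64. Col1a1 had 159, 183 and 250.4 against 118, 73.7 and 131, 1.86-fold higher at 6 months (limma adjusted p = 0.811), while its other probe set differed by only -0.20. Col3a1, the fibrillar collagen of soft tissue, had 174, 177 and 209 against 115, 150.3 and 142 (-0.46 ± 0.15 SE).

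Slc13a4, a sulphate transporter of the meninges, had 310.1, 368 and 334 against 203, 254 and 249.6 (1.44-fold higher at 6 months). The small proteoglycan Dcn had 247, 290.3 and 255 against 188, 199.8 and 203, a log2 difference of -0.42. All 3 arrays at 18 months lay below those at 6 months in these 2 genes, in Lum (-0.30), in Igfbp6 (-0.26), in the organic anion transporter Slc22a8 (-0.31) and in Ptgds (-0.18), the prostaglandin D synthase of the leptomeninges. Igf2, a growth factor secreted by meninges and choroid plexus, had 1251, 1290.3 and 959 against 921, 1022 and 768 (-0.37) and overlapped. Col5a1 was higher at 18 months without overlap, with 243, 259 and 281 against 329, 304 and 372 (0.36). Sparc (0.12) and Col6a1 (0.01) had slightly higher means too, but a second probe set of Sparc differed in sign (-0.08). Col8a2, a short-chain collagen outside the list, had 129, 130.4 and 117 against 72.4, 71.7 and 101, 1.56-fold higher at 6 months. None of these genes passed limma's test.

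A transcript of the choroid plexus, Ttr, varied widely between pools, and how much bordering tissue the pools held was not tested. Ttr encodes transthyretin, the main secreted protein of the choroid plexus, and had 3720.0, 164 and 125 at 6 months and 1658, 194 and 601 at 18 months, so the variation lay within each age. Of the other defining choroid plexus markers, Kl lay between 3.7 and 33.8, below the floor on all 6 arrays, and Folr1 (0.02) overlapped. The choroid plexus list had a median of 0.01 over 5 members, which changed sign in 7 alternatives and was -0.28 with a filter at the 60th percentile. Igfbp2, an insulin-like growth factor binding protein of choroid plexus and meninges, had 903, 981 and 1301 against 745, 611 and 846, 1.44-fold higher at 6 months without overlap. Slc6a20a, a proline transporter, had 308, 403 and 474 against 290.4, 179 and 283 (1.59-fold higher at 6 months), and its second probe set differed by -0.49. Without replicate 2 at 18 months the log2 difference of Slc6a20a was -0.44, against -0.67 with all arrays. The share of meninges in the dissected tissue cannot be told apart from expression per cell. Of 18 endothelial and mural genes, 11 were lower with a median of -0.08, and the defining endothelial markers Cldn5, Flt1 and Vwf overlapped between the ages.

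Blood and hypothalamic transcripts varied between pools as well. Hba-a3, an alpha globin of red cells, had 141, 270.2 and 618 at 6 months and 879.9, 304 and 797 at 18 months, a log2 difference of 1.06 ± 0.42 (SE) with an unadjusted limma p of 0.0219. Pmch, the precursor of melanin-concentrating hormone, a peptide of lateral hypothalamic neurons, had 449.9, 551 and 662 against 347, 998 and 1756. Alas2, which starts haem synthesis in red cells, had 182, 197 and 318 against 400.1, 241 and 532 (log2 difference 0.72, with an unadjusted limma p of 0.0395), and the beta globin Hbb had 4609, 4987 and 7553 against 5445, 5095 and 8811 (0.16). The blood list, with only these latter 2 genes tested, had a median of 0.44. Both genes had higher means at 18 months, as most members of the immune lists did. Hba-a3, Pmch, Alas2 and Hbb each overlapped between the ages. Their part in the other results was not tested. A fit with the choroid plexus list as a covariate left 302 probe sets with an unadjusted limma p under 0.05, beside 321 in the main fit. It passed 0 probe sets, as the main fit did, so that count could not fall.

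**Figure D4:**
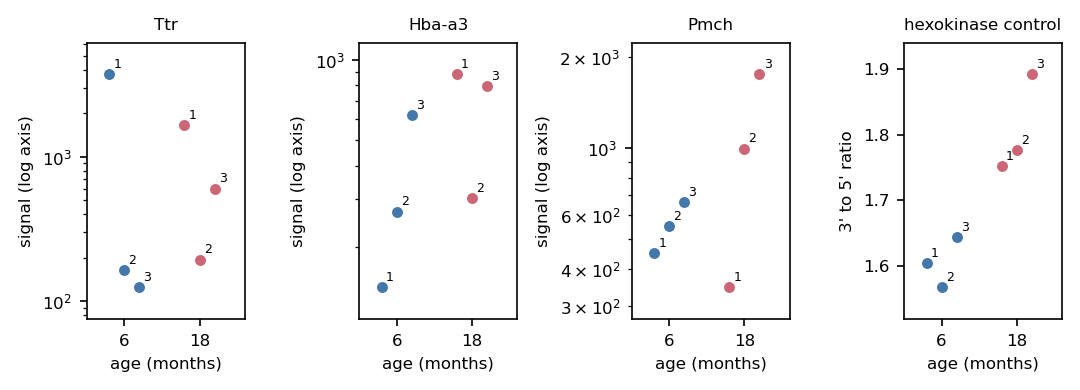
Signal (log axis) of Ttr, Hba-a3 and Pmch and the 3' to 5' ratio of the hexokinase control on each array at 6 and 18 months, with the replicate number beside each point. The 3 transcripts overlap between the ages, with Ttr at 3720.0 on 1 array at 6 months, while the hexokinase ratio does not overlap.

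**Figure D5:**
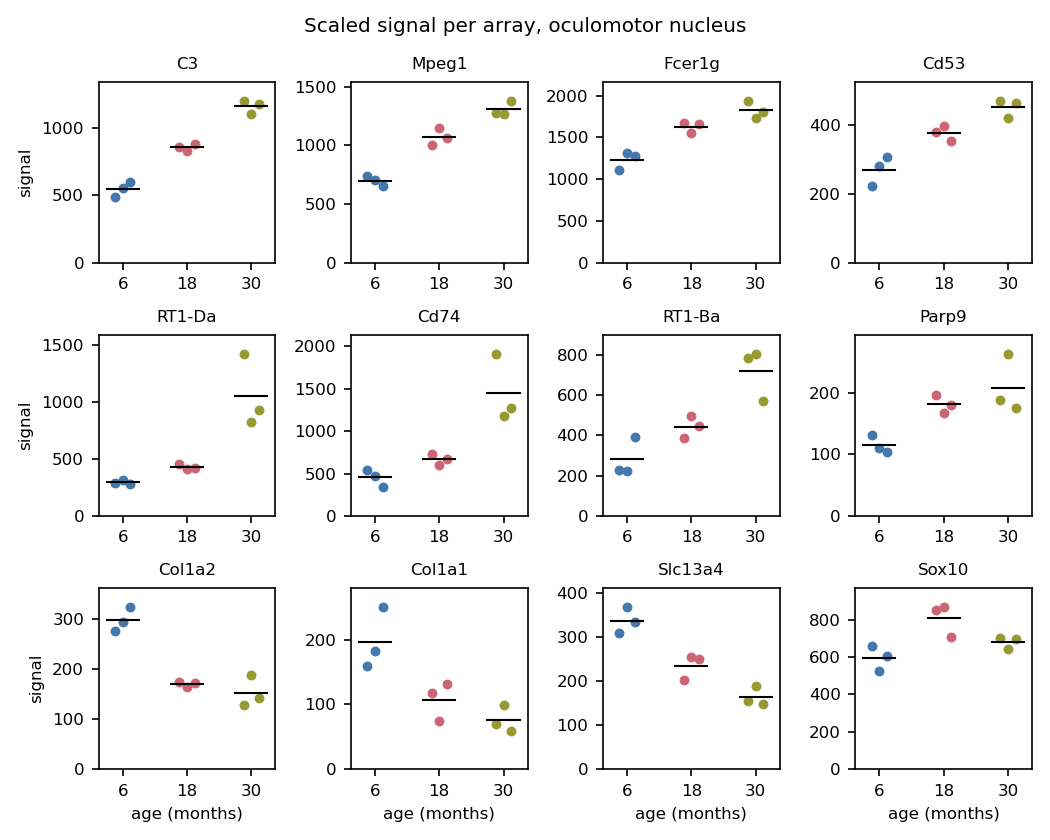
Scaled signal per array (vertical axis, from 0) at 6, 18 and 30 months in the oculomotor nucleus for 12 genes, with bars at the mean of 3 arrays. C3, Mpeg1, RT1-Da and Cd74 have higher means at 18 than at 6 months and higher still at 30 months, Slc13a4 and Col1a1 run the other way, and Sox10 has its highest mean at 18 months.

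Among genes of the oligodendrocyte lineage Sox10 had the smallest p. This gene, the transcription factor that specifies oligodendrocytes and activates myelin genes, had signals of 656, 522 and 604 at 6 months and 852, 865 and 704 at 18 months (1.36-fold, 95% interval 1.17 to 1.58, limma adjusted p = 0.811). At 30 months it had 701, 642 and 694. The oligodendrocyte lineage list ran from -0.16 to 0.44 with a median of 0.00 over 11 genes, and Cspg5 (0.11) was the only other member without overlap. Pdgfra, the receptor of oligodendrocyte precursors, had 572, 436 and 617 against 695, 692 and 557 (0.27). Of 13 genes of myelin and mature oligodendrocytes, 0 were without overlap and the median was -0.03, with Ugt8, which makes galactolipids of myelin, at -0.25 and Mog at -0.06. Of 17 astrocyte genes, Gfap and Cd44 were higher without overlap, beside 7% of all genes. Gfap, the astrocyte intermediate filament, had 5455, 5023 and 5068 against 5589, 5641 and 6417 (0.18 ± 0.13 SE), and the list median was -0.03. A second probe set of Cd44 differed in sign (-0.14, beside 0.33).

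Among neuronal genes the cholinergic and cranial motor neuron list lay lowest. Of its 11 members 10 were lower at 18 months, with a median log2 difference of -0.08. In 2 members the arrays were lower without overlap, beside 7.63% of all genes. Slc5a7, the choline transporter that limits acetylcholine synthesis, had 519, 489 and 610.2 against 409, 396 and 472 (-0.34 ± 0.17 SE). Gfra1, a receptor for the neurotrophic factor GDNF, had 470.0, 430.5 and 489 against 384, 406 and 398 (-0.23 ± 0.12). Both were lower without overlap, and neither had an unadjusted p under 0.05. A second probe set of Gfra1 differed in sign (0.04, beside -0.23). Chat had 191, 107 and 168 against 106, 96.8 and 139 (-0.42 ± 0.22), and Slc18a3, the vesicular acetylcholine transporter, had 255, 111 and 194 against 177, 147 and 199.8 (-0.03 ± 0.24), both with overlap. The neurofilament genes Nefl (-0.08), Nefm (-0.23) and Nefh (-0.05) and peripherin, Prph (-0.02), overlapped as well. The 11 genes of midbrain monoamine neurons had a median of -0.02 and none was without overlap.

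A few genes of transmission had an unadjusted p under 0.05 in lists with medians near 0. Grin2d, an NMDA receptor subunit, had 208, 199 and 297 against 402, 393 and 285 (0.62 ± 0.22), where replicate 3 of both ages overlapped. Vamp1 and Vamp2, the vesicle proteins of membrane fusion, ran in opposite directions. Vamp1 had 6299, 7999.7 and 8894 against 5748, 6117 and 6384 (-0.33 ± 0.13), and Vamp2 had 1833, 1922 and 2323 against 2663, 3128 and 2014 (0.35 ± 0.15), both with overlap. Scg2, a granin of dense-core vesicles, had 5241, 4712 and 4904 against 3986, 4188 and 3834 (-0.31 ± 0.13), without overlap. Map1a, a microtubule-associated protein of mature neurons, had 2631, 2759.8 and 3083 against 3541, 3725 and 3261 (0.31 ± 0.12), also without overlap. List medians were 0.08 for glutamate, -0.02 for GABA and glycine, -0.05 for the presynaptic vesicle cycle, 0.05 for voltage-gated channels and 0.00 for neuropeptides. With the hexokinase ratio as a covariate the GABA and glycine median was 0.22, close to the 0.23 of class II in that fit. Olfm1, a secreted neuronal glycoprotein, had 3958, 4599 and 4522 against 3539, 3662 and 3490.2 (1.22-fold higher at 6 months).

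Oxidative phosphorylation genes differed by little but mostly in the same direction. Of 35 subunits 34 were lower at 18 months, with a median log2 difference of -0.08 and a range from -0.32 to 0.02. In 4 of them the arrays were lower without overlap, beside 7.63% of all genes, and in the others the arrays overlapped. Before adjustment 2 members had a limma p under 0.05, among them Atp5f1a but not Ndufa4. Ndufa4, a small subunit of the respiratory chain, had 5799.7, 5153 and 4107 against 3891, 4006 and 4083 (-0.32 ± 0.18 SE). Atp5f1a, the alpha subunit of ATP synthase, had 7826, 6677 and 5628 against 5367, 5668 and 5443 (-0.28 ± 0.11), where replicate 3 at 6 months overlapped. The complex I subunits Ndufs3 (-0.19) and Ndufs1 (-0.17) did not overlap. Summed signals of 133714, 130415 and 123332 at 6 months and 116038, 125263 and 122253 at 18 months overlapped. Glycolytic genes had a median of -0.00 over 17 genes. Of 23 proteasome and ubiquitin genes, 19 were lower with a median of -0.07 and 5 without overlap, beside 7.63% of all genes. The ATPase subunit Psmc4 led them with 1484, 1777 and 1478 against 1409, 1364 and 1282.

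Of 23 genes of cholesterol and fatty acid synthesis, 15 were lower with a median of -0.08. Fdps, which makes farnesyl diphosphate, had 1947, 1821 and 1835 against 1483, 1400.0 and 1545 (-0.34 ± 0.13), without overlap. Acss2 (-0.22) and Hsd17b7 (-0.26) were lower without overlap, and Acly (0.15), which supplies cytosolic acetyl-CoA, was higher without overlap. Of 19 lysosomal genes, Npc2, which carries cholesterol out of the lysosome, had 3097, 2344 and 2556 against 3178, 3674 and 3146 (0.33 ± 0.12), and the list median was 0.03. Among 24 antioxidant and metal-binding genes the glutathione transferase Gstm1 (0.34) was higher and Prdx3 (-0.23) and catalase, Cat (-0.22), were lower, each without overlap. Chaperone genes had a median of 0.01 over 27 members, with 0 outside the overlap of the arrays, and ribosomal protein genes a median of -0.02 over 22. None of these metabolic genes passed limma's test.

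The other genes with the smallest p that were lower at 18 months have varied roles. Tm9sf3, a membrane protein of the secretory pathway, had 953, 717 and 734 against 511, 667 and 474 (1.46-fold higher at 6 months, limma adjusted p = 0.811), and at 30 months 703, 763 and 649. Csnk2b, the regulatory subunit of casein kinase 2, had 2368, 2365 and 2095 against 1865, 1689 and 1857 (1.26-fold, limma adjusted p = 0.851). Both were separated between the ages. Dhps, which makes the hypusine residue of a translation factor, had 436, 468 and 501 against 352, 359.7 and 321 (1.36-fold). Tmem223 had 689, 712 and 655 against 534, 544 and 527 (1.28-fold). Fstl1, a secreted glycoprotein, had 380.5, 375 and 368 against 345, 258 and 266 (1.30-fold), but a second probe set differed in sign (0.05).

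The 30-month arrays were set beside these values without a test, since they share the 6-month baseline and since replicates 2 and 3 at 30 months lay at opposite ends of the first principal component. C3 had 1199, 1099 and 1176 at 30 months, and Golm1 366, 391 and 357, all above every 18-month array. Mpeg1 had 1277, 1265 and 1380.5, also above. RT1-Da had 1424, 823 and 929, far above its 411 to 458 at 18 months. The class II list had a median log2 difference from 6 months of 1.21 at 30 months, against 0.44 at 18 months. For microglia these medians were 0.44 and 0.26, and for complement 0.38 and 0.31. Slc13a4 had 156, 188 and 147 at 30 months, below its 203 to 254 at 18 months. R3hdm2, with 320.2, 257 and 245, was lower at 30 months than on any array at 18 months.

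Whether the 18-month difference was unequal in the nucleus and the cord was tested directly. Of 9482 probe sets 0 (0%) passed limma's interaction test, with a smallest adjusted p of 0.2, and 481 had an unadjusted p under 0.05. That smallest value belonged to Lgals3, galectin-3 of phagocytes, which had 145, 139 and 139 against 116, 179 and 127 in the oculomotor nucleus and a log2 difference of 2.13 in the cord. Gpnmb differed by 0.39 here and by 2.04 in the cord, and RT1-Bb by 0.40 and 1.92 (limma adjusted p = 0.758 for both tissue differences). Of the 4 arrays that stood apart, 2 belong to the cord groups of this contrast. Without those 4 arrays 8 probe sets passed, among them Lgals3, Gpnmb and RT1-Bb (smallest adjusted p = 9.57e-05 in limma), and 10 passed when replicate 2 of the oculomotor nucleus at 30 months was left out too. With array weights 1 passed (Lgals3), and with the hexokinase ratio as a covariate 5 passed. C3 differed by 0.65 here and 0.93 in the cord. The list median of cholesterol and fatty acid synthesis was -0.08 here and -0.43 in the cord, and that of meninges and matrix -0.22 and -0.06, and differences between list medians were not tested.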

How the data were processed

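Total RNA was extracted with TRIzol, and biotinylated cRNA was hybridised to Affymetrix RA230 arrays, per the series design text. The authors summarised the probes with Microarray Suite 5.0, per the same text, and the deposited table holds 1 linear intensity per probe set and array, without detection calls. The design text speaks of 4 replicates per group. The labels analysed here give 3. Intensities were scaled to a common 2% trimmed mean, raised to a floor of 66.4 (pooled 20th percentile) and taken to log2. The 57 control probe sets were left out. Probe sets with a mean log2 signal above 7.459 (pooled 40th percentile) were kept, 9482 in all. Printed array values are scaled signals before the floor. Names came from the platform annotation through Entrez identifiers (12748 probe sets) or its symbols (35). Another 312 probe sets name several genes and 2771 are unlisted, and these were given no name.

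Group means of 18 arrays in 6 groups were fitted with limma 3.58.1 in R 4.3.3 (empirical Bayes with a mean-variance trend, 12 residual degrees of freedom), 2-sided, with Benjamini-Hochberg adjustment over all probe sets kept, and the code was tested on simulated data. Fold changes are differences between mean log2 signals taken back to the linear scale, and a list uses the brightest probe set of each gene. Named are the 12 genes higher and the 12 lower with the smallest p, those past the study's rule, up to 5 genes with the smallest p per list, all class II, complement and microglia members, and the tissue markers. The comparison and the lists (38, of which 535 members were tested) were chosen with earlier results of these data known. Promoters came from RefSeq (GRCr8). Normalization, floor, filter, fit, covariates and left-out arrays were varied.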

Additional observations from a re-analysis of the deposited data

How the results depend on the processing

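Across 24 alternatives, the count of probe sets past limma's test stayed at 0 except with array weights (2), without the 4 arrays that stood apart (2) and without these and replicate 2 of the oculomotor nucleus at 30 months (2), the last 2 chosen after seeing the data. The count for the tissue difference was 0 except with array weights (1), the hexokinase covariate (5), without the 4 arrays (8) and without all 5 (10). The count at an unadjusted p under 0.05 was 321 of 9482 probe sets tested. Filters changed the number tested, giving 548 of 15866 with no filter and 213 of 6287 with a filter at the 60th percentile. Among the same 9482 it became 823 in a fit of the 6 arrays compared, 926 with array weights and 515 with the hexokinase covariate. It was 507 without the 4 arrays and 652 without all 5. When 1 of the 6 arrays was left out, it ran from 200 (without replicate 2 at 6 months) to 346 (without replicate 3 at 18 months). Of the 321, 56.4% were higher at 18 months, against 47.9% with median centring, 46.9% without replicate 1 at 18 months and 65% without replicate 2 at 6 months. The study's rule kept 5 probe sets, 3 with a pseudocount of 16 in place of the floor, 21 with no filter, 3 with a filter on the 6 arrays, 1 with a filter at the 60th percentile, and 8 to 14 when an array was left out, where fewer pairs must match (14 without replicate 1 at 6 months). The cause of the other shifts was not tested. With the replicate number as a block 0 probe sets passed and 288 had an unadjusted p under 0.05. Deviations of same-numbered arrays correlated at 0.081, 0.048 and 0.041, each array best with its own number, a hint from the data and not the design, so the arrays were not treated as paired. For the 24 probe sets with the smallest p, the only single genes run through the alternatives, none reversed: 559 values kept their side of the threshold and 6 newly passed it (C3, Golm1 and Mpeg1 in the settings with 2 passing). Over the list medians, 785 values moved by less than the spread between arrays and 55 by more. The medians of class II (0.23 to 0.48), complement (0.19 to 0.37), microglia (0.21 to 0.32), interferon (0.18 to 0.26), meninges and matrix (-0.28 to -0.19), glucocorticoid (-0.30 to -0.10), oxidative phosphorylation (-0.11 to -0.05) and cholinergic genes (-0.19 to -0.06) kept their sign in these alternatives, while lists near 0 often changed sign. Probe sets near the floor of 66.4 are limited by signal over background.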

Other observations

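Of 12 glucocorticoid-responsive genes, 11 were lower at 18 months, with a median log2 difference of -0.20 beside -0.01 over all 6958 genes. In 1 of them the arrays were lower without overlap, beside 7.63% of all genes. Sgk1, a kinase induced by corticosteroids, had signals of 855, 1860.1 and 2179 at 6 months and 872, 1351 and 1173 at 18 months, so its lowest arrays at both ages were alike. Errfi1, a feedback inhibitor of the EGF receptor, had 428, 615 and 559.8 against 436, 468 and 413. Ddit4, an inhibitor of mTOR signalling, had 456, 669 and 814 against 526, 580.4 and 465. Replicate 1 was the lowest array at 6 months in all 3 genes. The metallothionein Mt2A was the member with a higher mean at 18 months, with 1493, 1556 and 1175 against 1545, 2101 and 1746. None of the 12 had an unadjusted p under 0.05.

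Clock genes were mixed around a median of 0.02 over 11 genes. The repressor Bhlhe40 had 308, 266 and 283 against 234, 229 and 243, and Nr1d1, a repressor of Bmal1, had 303, 314 and 238 against 380.2, 317 and 341, both without overlap and in opposite directions. No label used here gives the time of day at which tissue was taken.

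The typical spread within a group was a median SD of 0.12 on the log2 scale, 0.10 at 6 months and 0.11 at 18 months. Against it, Ttr had a within-group SD of 2.21, Hba-a3 0.96, Fip1l1 0.90 and Pmch 0.86. Fip1l1, a polyadenylation factor, had 322, 44.8 and 293 at 6 months and 359, 331 and 334 at 18 months, a difference of 0.89 with replicate 2 at 6 months far below the other arrays.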
